A study of Mus musculus with 8 samples.

Results

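The immunoglobulin variable (V) genes form the set described here, which is every row of the processed table with the biotype IG_V_gene. They number 218 of the 54532 genes, and were grouped by the start of their names into 113 Ighv genes of the heavy chain locus on chromosome 12, 100 Igkv genes of the kappa locus on chromosome 6 and 3 Iglv genes of the lambda locus on chromosome 16. The other 2 carry provisional names, lie on chromosome 6 and had no read in any library. Usage, the share of a locus' V reads that falls on each gene, was taken from the raw counts.

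RNA-Seq was performed on 8 libraries of Zeb1-/- LSK cells, 4 of the EpCAM+ and 4 of the EpCAM- fraction. LSK cells are bone marrow cells without lineage markers that carry Sca-1 and c-Kit, among them the hematopoietic stem cells (HSCs), and the lineage antibodies used to exclude mature cells included B220, a B cell surface marker. Cells of both fractions came from C57BL/6 Zeb1 fl/fl;Mx1-Cre mice aged 8 to 12 weeks, taken on day 14 from the last pIpC injection, and no library without the deletion was part of the comparison. Mx1-Cre is switched on by interferon, which pIpC induces, and it acts in many cell types besides HSCs. The RNA was isolated from 4 mice by the methods of the study, and the labels do not tie a library to a mouse. The question of the comparison was how the EpCAM+ cells that arise after loss of Zeb1 differ from the EpCAM- cells beside them.

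Reads counted on genes came to between 15225714 and 17073546 per EpCAM+ library and between 14114491 and 15929923 per EpCAM- library. Epcam itself stood at 161 to 234 CPM (counts scaled to the TMM-adjusted library size) in the EpCAM+ libraries and at 1.25 to 8.99 CPM in the EpCAM- libraries. Reads of Zeb1 remained in both fractions, at 14.8 to 23.7 CPM and 9.49 to 14.0 CPM, in counts of the whole gene that do not separate its deleted part. Library EpCAM+ 1 stood apart from the other EpCAM+ libraries in immunoglobulin reads, which made up 5.61% of all its reads against 0.423%, 0.703% and 0.440% in EpCAM+ 2, 3 and 4. The summed V levels are therefore given with and without it. Values of single genes and of gene lists are given without it only in some cases.

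An antibody heavy chain is assembled when a B cell precursor cuts its DNA with the RAG recombinase and joins 1 V gene to a D and a J gene, and a light chain when it joins a V gene to a J gene of the kappa or the lambda locus. The joined exon is then transcribed from the promoter of the chosen V gene and spliced to a constant gene such as Ighm or Igkc. Each B cell and its offspring, including antibody-secreting plasma cells, so uses mainly 1 heavy and 1 light chain V gene, and the V genes read in a sample give a rough picture of which clones its RNA came from. In bulk samples fewer cells of a type and less RNA per cell cannot be told apart, and a bulk library does not show which heavy chain was paired with which light chain.

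The germline sequences of the V genes that led the counts follow, because the V gene named for a read is decided by such sequence alone. Each is the last 288 bases of the coding sequence, all of it in the V exon, 5′ to 3′ on the coding strand in GRCm38, taken from the transcripts of GENCODE release M21. That annotation held all 218 V genes at the same coordinates as the table. The capitals run from the last in-frame cysteine codon to the end of the gene, the part where the joined chain goes on into the hypervariable loop called CDR3. The genes shown are Ighv11-2 and Igkv14-126, which led the heavy and kappa chain reads of every EpCAM+ library, Ighv7-1 and Igkv15-103, which came next to them in library EpCAM+ 4, and Ighv1-23, which led the few heavy chain reads of every EpCAM- library.
Ighv11-2 (chr12:114048241-114048528, minus strand): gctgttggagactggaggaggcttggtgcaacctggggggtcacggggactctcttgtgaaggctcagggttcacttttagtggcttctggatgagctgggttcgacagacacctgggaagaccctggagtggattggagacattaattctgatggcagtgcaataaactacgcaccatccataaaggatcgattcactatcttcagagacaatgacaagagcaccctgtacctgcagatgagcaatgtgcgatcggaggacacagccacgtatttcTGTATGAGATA
Igkv14-126 (chr6:67896355-67896642, plus strand): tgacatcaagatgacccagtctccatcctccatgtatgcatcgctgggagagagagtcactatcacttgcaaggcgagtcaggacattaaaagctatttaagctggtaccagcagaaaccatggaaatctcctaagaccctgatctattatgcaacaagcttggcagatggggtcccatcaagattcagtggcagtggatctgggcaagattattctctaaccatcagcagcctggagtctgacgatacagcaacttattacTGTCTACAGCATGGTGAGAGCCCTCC
Ighv7-1 (chr12:113896408-113896695, minus strand): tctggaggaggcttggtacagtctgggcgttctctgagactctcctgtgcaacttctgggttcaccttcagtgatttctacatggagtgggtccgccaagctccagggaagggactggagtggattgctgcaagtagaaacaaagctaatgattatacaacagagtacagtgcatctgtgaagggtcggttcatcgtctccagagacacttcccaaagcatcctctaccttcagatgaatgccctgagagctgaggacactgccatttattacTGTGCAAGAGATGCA
Igkv15-103 (chr6:68437638-68437925, plus strand): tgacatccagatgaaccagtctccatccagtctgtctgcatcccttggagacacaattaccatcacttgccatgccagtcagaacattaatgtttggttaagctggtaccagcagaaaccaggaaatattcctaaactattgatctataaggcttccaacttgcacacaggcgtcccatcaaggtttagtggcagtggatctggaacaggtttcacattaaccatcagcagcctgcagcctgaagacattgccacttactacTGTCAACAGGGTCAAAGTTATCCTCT
Ighv1-23 (chr12:114764450-114764737, minus strand): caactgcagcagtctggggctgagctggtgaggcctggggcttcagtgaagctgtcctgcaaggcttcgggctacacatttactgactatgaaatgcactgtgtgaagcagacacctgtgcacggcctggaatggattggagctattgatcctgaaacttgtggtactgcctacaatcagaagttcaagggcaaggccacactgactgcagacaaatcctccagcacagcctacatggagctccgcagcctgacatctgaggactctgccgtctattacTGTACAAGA

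V gene reads of all 3 loci were higher in the EpCAM+ libraries, with no overlap between the fractions. Summed over the locus, Ighv reads numbered 36446, 2919, 4853 and 3218 in EpCAM+ 1 to 4 and 31, 43, 25 and 16 in EpCAM- 1 to 4. Igkv reads numbered 93293, 8153, 15393 and 7335 in the EpCAM+ libraries, against 7, 2, 7 and 8 in the EpCAM- libraries. Iglv reads numbered 8524, 776, 1375 and 1608 in the EpCAM+ libraries, and a single read, in EpCAM- 4, was the only one of its locus in the other fraction. The lowest EpCAM+ library was above the highest EpCAM- library at each locus, and EpCAM+ 1 was above the other EpCAM+ libraries at each of them.

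The summed Ighv level was 757 ± 1085 CPM in the EpCAM+ fraction and 2.00 ± 0.849 CPM in the EpCAM- fraction (mean ± SD, n = 4 each), and 215 CPM in the EpCAM+ fraction without EpCAM+ 1. The summed Igkv level was 1974 ± 2756 CPM against 0.413 ± 0.188 CPM, and 599 CPM without EpCAM+ 1. The summed Iglv level was 196 ± 242 CPM against 0.0184 ± 0.0368 CPM, and 75.0 CPM without EpCAM+ 1. On the log2(CPM + 0.1) scale the fractions differed by 7.61 for Ighv, by 11.08 for Igkv and by 10.01 for Iglv (p = 0.0286 for each by two-sided exact permutation, the lowest value this design can give, adjusted p = 0.0357 over 5 single values tested). The sizes depend on the pseudocount where the EpCAM- reads are so few, and with 1 CPM in place of 0.1 CPM they were 7.06, 9.53 and 6.88. The replicate numbers pair the libraries, and the exact sign-flip permutation test on the 4 pairs gave p = 0.125 for each sum, the smallest that 4 pairs allow.

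**Figure D1:**
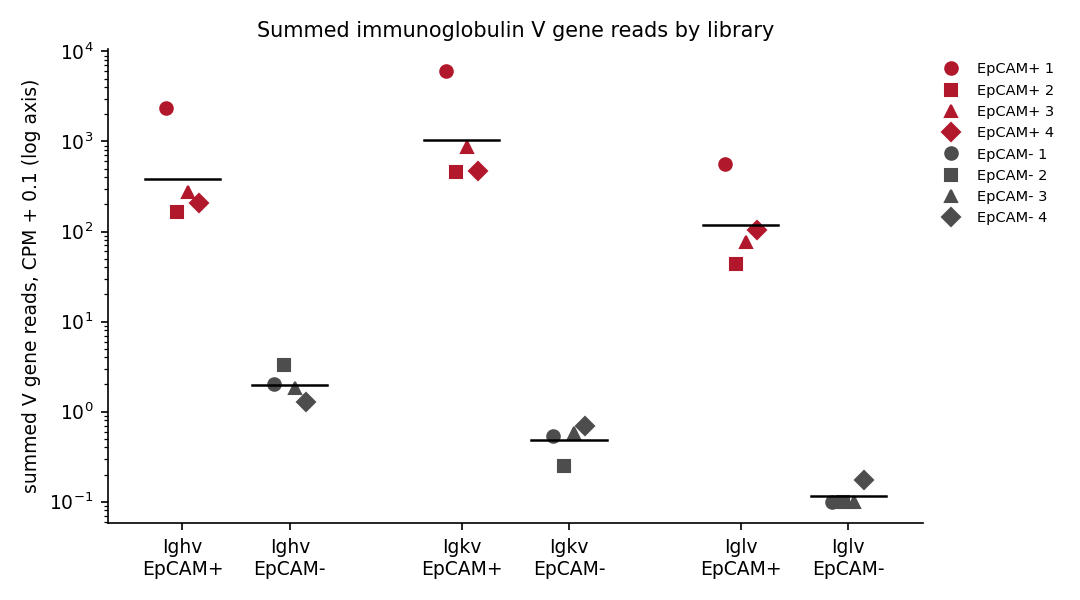
Summed V gene reads of each library in CPM plus 0.1 on a log axis, by locus and fraction. Symbols mark the replicate number and horizontal lines the mean of the log values. Each EpCAM+ library lies above every EpCAM- library at all 3 loci, and EpCAM+ 1, with 2383 CPM for Ighv, 6099 CPM for Igkv and 557 CPM for Iglv, lies above the other EpCAM+ libraries.

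Among the Ighv genes, 76 of 113 had at least 1 read in an EpCAM+ library and 23 had one in an EpCAM- library, while 35 had none anywhere. Among the Igkv genes, 68 of 100 were read in the EpCAM+ fraction, 16 in the EpCAM- fraction and 32 nowhere. All 3 Iglv genes were read in the EpCAM+ fraction. At 10 reads or more in at least 1 library, 67 Ighv, 56 Igkv and 3 Iglv genes remained in the EpCAM+ fraction, against 1 Ighv gene and no light chain V gene in the EpCAM- fraction. All 4 EpCAM+ libraries lay above all 4 EpCAM- libraries for 15 Ighv, 8 Igkv and 2 Iglv genes, and 20.1% of the 13560 genes tested in the whole table did the same. The V genes here include those with too few reads to be tested, so the counts and that percentage cannot be compared directly.

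Only 14 of the 218 V genes passed the filter on low counts, 8 Ighv, 4 Igkv and 2 Iglv genes, and 204 were not tested. edgeR's quasi-likelihood test called 13 of the 14 higher in EpCAM+ cells (Benjamini-Hochberg adjusted p under 0.05 over all genes tested), where 42.6% of all tested genes were called in either direction and 21.8% were called higher and 20.8% lower. Those 13 passed the filter through the EpCAM+ libraries alone, so that their count adds no support to the difference in the sums. The gene that was tested and not called was Ighv1-23, with a log2 fold change of 0.46 ± 0.62 (SE) and an adjusted p of 0.573.

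Ighv11-2 was the most abundant heavy chain V gene in all 4 EpCAM+ libraries. It had 10522, 1060, 1960 and 743 reads in EpCAM+ 1 to 4 and no read in any EpCAM- library. The lowest EpCAM+ library was at least 217-fold above the floor of the EpCAM- libraries (3 reads per library, at most 0.222 CPM), and the mean of the EpCAM+ libraries at least 1020-fold, or 327-fold without EpCAM+ 1 (edgeR adjusted p = 0.00204). It held 28.9% of the Ighv reads of EpCAM+ 1 (95% exact binomial interval 28.4 to 29.3), 36.3% of EpCAM+ 2 (34.6 to 38.1), 40.4% of EpCAM+ 3 (39.0 to 41.8) and 23.1% of EpCAM+ 4 (21.6 to 24.6). The shares differed between the libraries by more than these intervals, which cover counting error only. Its gene lies 618 kb from the J genes and belongs to a family of 2 members.

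Its sister gene Ighv11-1 differs at 4 of 353 aligned coding bases (98.9% identity), all of them inside the printed stretch, where capitals mark the bases that differ from Ighv11-2. Reads of 150 bp that cover none of these positions fit either gene.
Ighv11-1 (chr12:113981879-113982166, minus strand): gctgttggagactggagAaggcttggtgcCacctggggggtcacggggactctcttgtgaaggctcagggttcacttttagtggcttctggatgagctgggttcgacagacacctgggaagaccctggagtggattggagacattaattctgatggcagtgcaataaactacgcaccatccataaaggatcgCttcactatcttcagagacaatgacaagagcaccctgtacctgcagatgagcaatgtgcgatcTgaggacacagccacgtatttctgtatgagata
Ighv11-1 had 51, 3, 4 and 0 reads in EpCAM+ 1 to 4 and none in the EpCAM- libraries. The reads of the family were thus nearly all counted on Ighv11-2.

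Ighv7-1 came next by mean share, with 920, 156, 490 and 728 reads in EpCAM+ 1 to 4 and none in the EpCAM- libraries. The lowest EpCAM+ library was at least 39.8-fold above the floor, and the adjusted p was 0.000576 by edgeR. Its share of the Ighv reads ranged from 2.52% in EpCAM+ 1 to 22.6% in EpCAM+ 4. Divided by gene length it was the leading gene of EpCAM+ 4, with 23.9% against 19.2% for Ighv11-2, while Ighv11-2 led the other 3 libraries on that scale too. It differs from its nearest relative, Ighv7-3, at 40 of 361 aligned bases.

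The other heavy chain genes of high mean share were uneven between libraries. Ighv8-8 had 140, 198, 664 and 0 reads in EpCAM+ 1 to 4, and Ighv5-16 had 3516, 0, 64 and 198. Ighv1-26 was read in all 4, with 2631, 108, 72 and 100 reads, against a single read in EpCAM- 2 (edgeR adjusted p = 0.00441). Ighv6-6 had 272, 40, 197 and 168 reads in the EpCAM+ libraries and 3, 2, 4 and 1 in the EpCAM- libraries, a log2 fold change of 5.86 ± 0.70 (SE, edgeR adjusted p = 0.000278). Ighv6-3 had 582, 78, 97 and 57 reads against 4, 7, 3 and 2, a log2 fold change of 5.49 ± 0.98 (edgeR adjusted p = 0.00178). Without EpCAM+ 1 its log2 fold change was 3.98. The fractions did not overlap for Ighv1-26, Ighv6-6 and Ighv6-3, and neither Ighv8-8 nor Ighv5-16 passed the filter.

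Igkv14-126 was the most abundant kappa V gene in all 4 EpCAM+ libraries, with 26939, 3327, 6697 and 2119 reads and none in any EpCAM- library. The lowest EpCAM+ library was at least 619-fold above the EpCAM- floor, and the mean at least 2772-fold, or 1052-fold without EpCAM+ 1 (edgeR adjusted p = 0.000932). Its share of the Igkv reads was 28.9% in EpCAM+ 1, 40.8% in EpCAM+ 2, 43.5% in EpCAM+ 3 and 28.9% in EpCAM+ 4. It lies far from the J genes, at 2826 kb. Its nearest relative, Igkv14-111, differs at 30 of 353 bases and had 2718, 143, 0 and 0 reads in the EpCAM+ libraries, and EpCAM+ 3 and 4 thus had reads of the former and none of the latter. As background, Ighv11-2 joined with Igkv14-126 is a well-known pair of B-1 cells, a B cell type of innate character, whose antibody binds phosphatidylcholine. Whether the reads of these genes came from the same cells was not tested.

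Another known pair of phosphatidylcholine-binding B-1 cells is Ighv12-3 with Igkv4-91, and its genes were looked up after the values above were seen. Ighv12-3 had 453 reads in EpCAM+ 3 and none in any other library. Igkv4-91 had 187 reads in EpCAM+ 3 and a single read elsewhere, in EpCAM- 1. Both genes were thus read in the same EpCAM+ library and not in the other 3.

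Igkv15-103 was the kappa gene with the smallest adjusted p of all V genes tested, 4.2e-05 by edgeR. It had 2154, 602, 1372 and 1738 reads in EpCAM+ 1 to 4, a narrower range than that of Igkv14-126, and a single read in EpCAM- 1. Its share of the Igkv reads lay between 2.31% in EpCAM+ 1, the library with the most V reads, and 23.7% in EpCAM+ 4. Igkv6-17 had 1376, 624, 2231 and 54 reads, and Igkv4-74 had 1250, 409, 2003 and 178, both without a read in the EpCAM- libraries (edgeR adjusted p = 0.00286 and 0.00122). All 3 genes were lower in reads in EpCAM+ 2 than in EpCAM+ 3, and Igkv15-103 had the most reads of them in EpCAM+ 4.

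Some V genes with many reads belonged to 1 library. Igkv3-4 had 22094 reads in EpCAM+ 1, 23.7% of the Igkv reads of that library, and 1, 2 and 0 reads in the other EpCAM+ libraries and none in the EpCAM- libraries. Ighv1-11, with 2667 reads in EpCAM+ 1, had 0, 0 and 1 in the others, and Ighv1-64 had 2160 reads in EpCAM+ 1 alone. Igkv6-13 was read in EpCAM+ 2 alone, with 862 reads. Igkv4-61, with 461 reads, and Igkv17-121, with 347, were each read in EpCAM+ 4 and otherwise in a single EpCAM- library, with 1 read. These genes apart from Igkv3-4 and Igkv4-61 were named after their values were seen. Igkv3-4, with 22094 reads in 1 library, thus had at most 2 in any other. Assignment of reads to the wrong library was not tested.

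**Figure D2:**
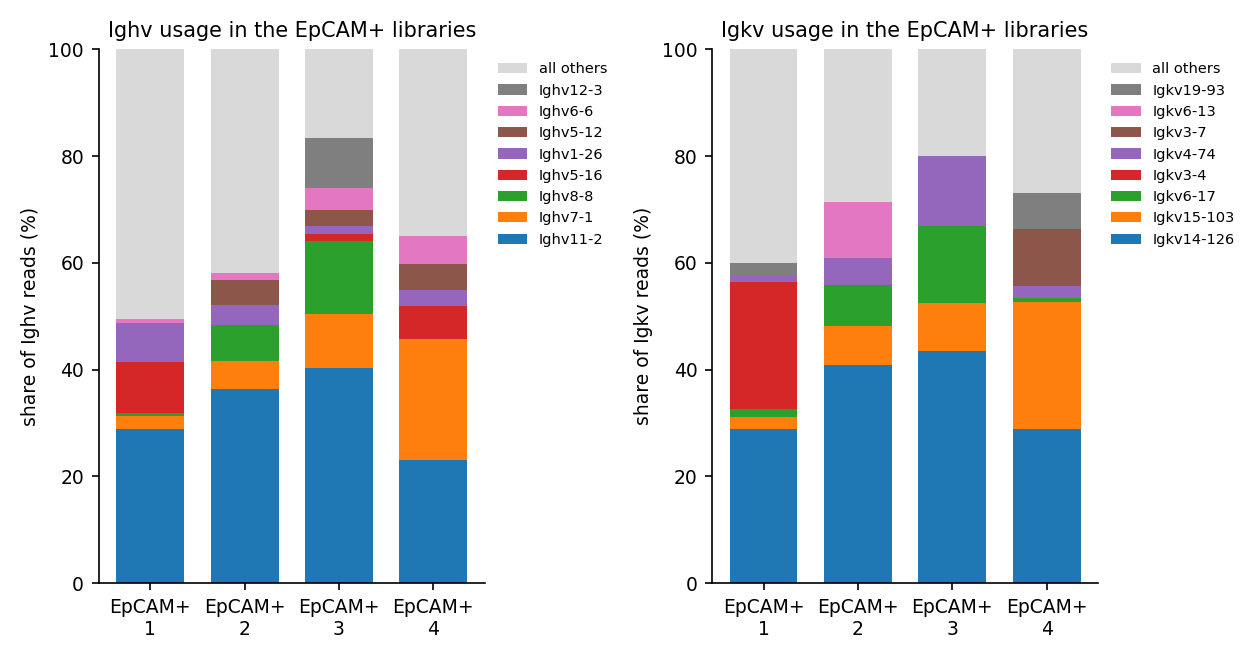
Share of the Ighv reads (left) and Igkv reads (right) of each EpCAM+ library in percent, for the 8 genes of highest mean share in each locus and all others together. Ighv11-2 (23.1% to 40.4%) and Igkv14-126 (28.9% to 43.5%) form the lowest block of every bar, Igkv3-4 appears in EpCAM+ 1 and Ighv12-3 in EpCAM+ 3.

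The genes present in every EpCAM+ library were few but held much of the reads. At 10 reads or more, 7 Ighv genes were shared by all 4 libraries (Ighv11-2, Ighv7-1, Ighv1-26, Ighv6-6, Ighv6-3, Ighv9-3 and Ighv1-55), and they held 42.3%, 51.6%, 60.5% and 57.8% of the Ighv reads of EpCAM+ 1 to 4. Likewise 5 Igkv genes were shared (Igkv14-126, Igkv15-103, Igkv6-17, Igkv4-74 and Igkv1-135), with 34.7%, 64.1%, 80.0% and 58.1% of the Igkv reads. In contrast, 38 Ighv and 29 Igkv genes reached 10 reads in exactly 1 library. These took 33.6%, 10.8%, 14.1% and 4.13% of the Ighv reads of EpCAM+ 1 to 4 and 36.7%, 13.0%, 3.12% and 22.7% of the Igkv reads. EpCAM+ 1, which had the most V reads, also had the lowest share on the genes common to all. A fixed cut of 10 reads is a smaller share of usage in EpCAM+ 1, with 36446 Ighv reads, than in EpCAM+ 2, with 2919. Genes of low share in EpCAM+ 1 could thus miss the cut in the other libraries through depth alone, and this was not tested.

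**Figure D3:**
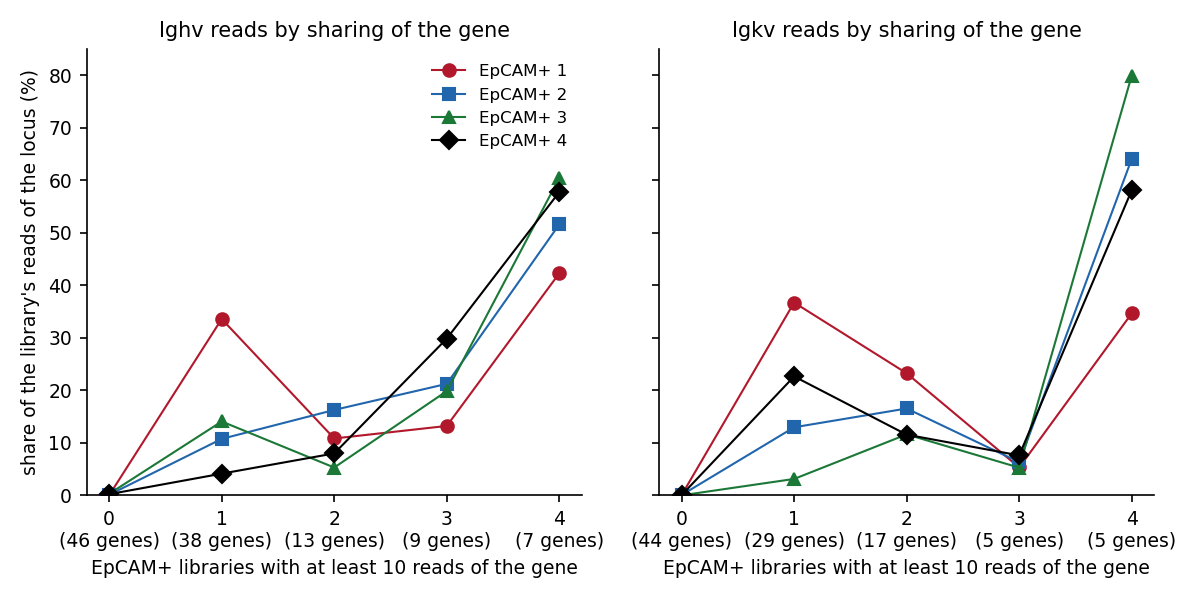
Share of each EpCAM+ library's Ighv (left) and Igkv (right) reads in percent, split by the number of EpCAM+ libraries in which the gene had at least 10 reads. The 7 Ighv and 5 Igkv genes found in all 4 libraries held 42.3% to 60.5% and 34.7% to 80.0% of the reads.

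Taken as shares, usage in any pair of EpCAM+ libraries overlapped by 40.1% to 60.1% for Ighv and by 41.1% to 62.7% for Igkv, over 6 pairs each, where 100% would be identical usage. The leading gene alone gave 23.1 to 36.3 of those percentage points for Ighv and 28.9 to 40.8 for Igkv. The overlap was highest between EpCAM+ 2 and EpCAM+ 3 at both loci. The libraries therefore had their leading genes in common and differed in most of what remained.

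Evenness was measured as the effective number of V genes, the inverse Simpson index, which is the number of equally used genes that would give the same chance of drawing the same gene with 2 reads and which does not grow with depth. For Ighv it was 8.66, 6.35, 4.85 and 7.97 in EpCAM+ 1 to 4 (6.96 ± 1.71, SD, n = 4), although 62, 35, 36 and 34 genes had a read. For Igkv it was 6.74, 5.02, 4.18 and 5.98 (5.48 ± 1.12), with 59, 30, 23 and 24 genes read. The order of the libraries was the same at both loci, with EpCAM+ 3 the least even and EpCAM+ 1 the most. The EpCAM- libraries held fewer than 100 V reads of each locus, and no evenness was computed for them and no test made.

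The Ighv1 family is the largest of the mouse heavy chain locus, with 53 of the 113 genes. It held 41.8%, 25.4%, 11.2% and 23.3% of the Ighv reads of EpCAM+ 1 to 4 (25.4% ± 12.6, SD, n = 4). A family of 53 genes thus took a smaller share than the single gene Ighv11-2 in EpCAM+ 2 and EpCAM+ 3. Position along the locus gave a similar split, since the 56 Ighv genes nearest to the J genes, within 1154 kb, held 60.9%, 72.8%, 75.0% and 73.7% of the reads. At the kappa locus the 50 genes farthest from the J genes, beyond 1323 kb, held 56.0%, 72.3%, 71.2% and 80.2%. In each case the side named is the one with the leading gene. Kappa V genes lie in both orientations, and those on the strand opposite to Igkc join by inversion rather than deletion of the DNA between. The 38 Igkv genes on the same strand as Igkc held 66.7%, 67.5%, 67.0% and 77.5% of the reads, and both Igkv14-126 and Igkv15-103 are among them.

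**Figure D4:**
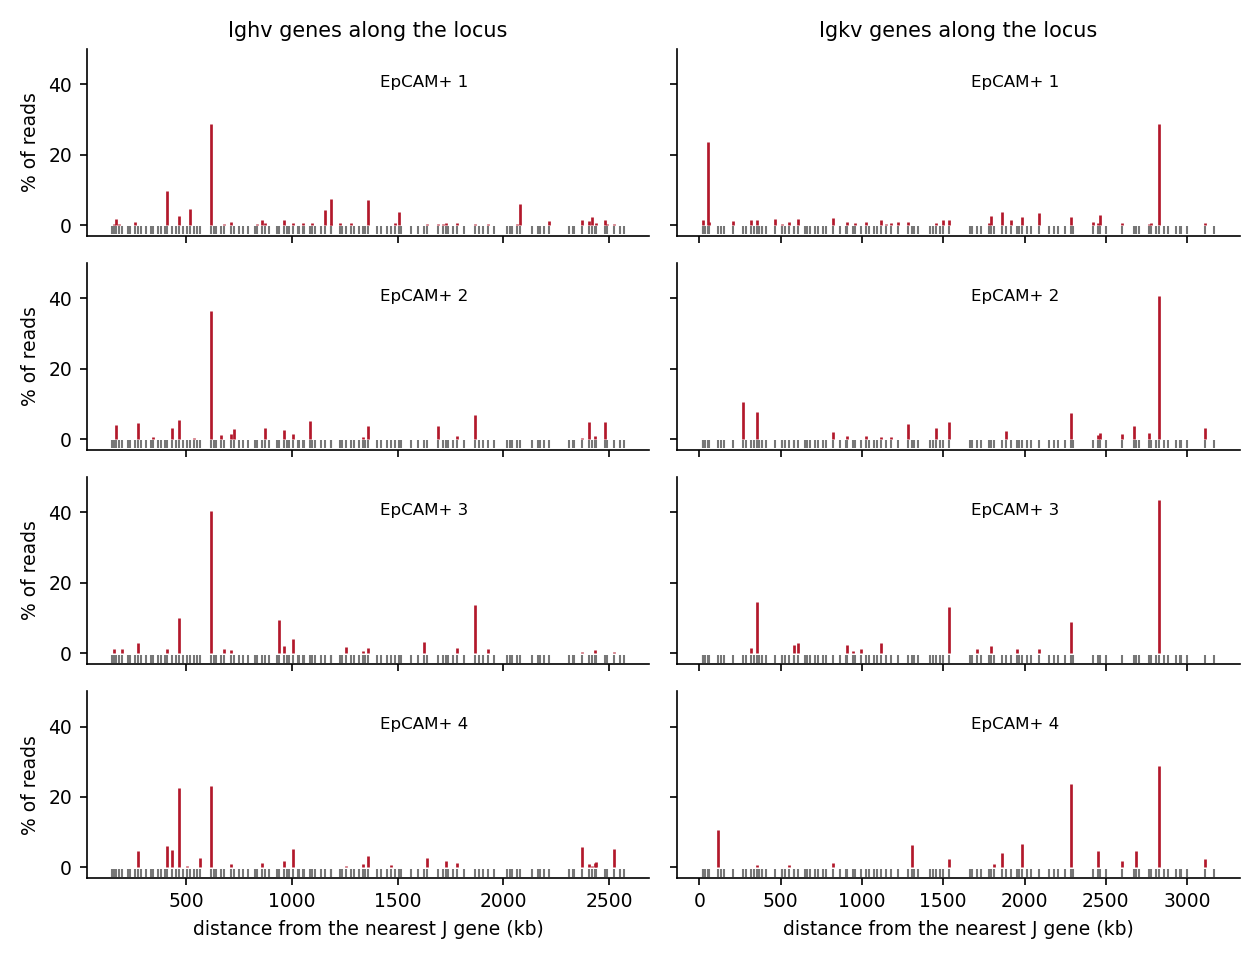
Share of the reads of each V gene in percent against its distance from the nearest J gene in kb, for Ighv (left) and Igkv (right) and for each EpCAM+ library in a row. Grey ticks mark all V genes of the locus. The same tall line stands at 618 kb (Ighv11-2) and at 2826 kb (Igkv14-126) in all 4 libraries, while most other lines differ between rows.

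Kappa V genes made up 91.6%, 91.3%, 91.8% and 82.0% of the light chain V reads of EpCAM+ 1 to 4 (89.2% ± 4.78, SD, n = 4). EpCAM+ 4 was the lowest. The lambda reads of the libraries differed in kind. Iglv1 had 6508, 763, 1351 and 1057 reads and led in every EpCAM+ library, with a single read in EpCAM- 4 (edgeR adjusted p = 0.000248). Iglv2 had 1906, 0, 0 and 514 reads, so that it was read in EpCAM+ 1 and EpCAM+ 4, with 22.4% and 32.0% of the Iglv reads, and in no other library. Iglv3 had 110, 13, 24 and 37 reads, 1.29% to 2.30% of the Iglv reads, and none in the EpCAM- libraries (edgeR adjusted p = 0.00427). In the mouse Iglv2 is mostly joined to Iglc2, and Iglc2 had 4398, 96, 172 and 999 reads in EpCAM+ 1 to 4, with the high values in the same libraries.

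Iglv1 and Iglv2 differ at 11 of 351 coding bases (96.9% identity). They are shown here because the counts told them apart in spite of this, with 763 and 1351 reads of Iglv1 in libraries without a read of Iglv2. Capitals in Iglv2 mark the bases that differ from Iglv1 within the stretch.
Iglv1 (chr16:19085017-19085304, minus strand): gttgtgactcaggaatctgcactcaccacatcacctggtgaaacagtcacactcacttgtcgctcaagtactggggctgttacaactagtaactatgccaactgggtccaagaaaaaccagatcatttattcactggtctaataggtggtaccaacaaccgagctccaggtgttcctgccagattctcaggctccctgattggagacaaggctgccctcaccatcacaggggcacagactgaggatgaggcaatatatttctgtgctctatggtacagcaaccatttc
Iglv2 (chr16:19260401-19260688, minus strand): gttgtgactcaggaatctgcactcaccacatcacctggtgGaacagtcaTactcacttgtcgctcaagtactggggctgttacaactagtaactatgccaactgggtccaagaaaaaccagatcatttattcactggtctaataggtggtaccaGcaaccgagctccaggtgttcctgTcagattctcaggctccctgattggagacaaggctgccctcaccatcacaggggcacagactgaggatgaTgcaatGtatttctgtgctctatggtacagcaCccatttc

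The EpCAM- libraries had a different leading gene. Ighv1-23 had 9 of 31, 19 of 43, 11 of 25 and 4 of 16 Ighv reads in EpCAM- 1 to 4, which are shares of 29.0% (95% exact binomial interval 14.2 to 48.0), 44.2% (29.1 to 60.1), 44.0% (24.4 to 65.1) and 25.0% (7.27 to 52.4). In the EpCAM+ libraries it had 2, 16, 25 and 26 reads, so that its level overlapped between the fractions. Ighv1-23 differs from its nearest relative, Ighv1-15, at 7 of 351 bases, and Ighv1-15 had 1, 2, 0 and 0 reads in the EpCAM- libraries. Ighv6-3 and Ighv6-6 came next by mean share. No kappa gene had more than 4 reads in an EpCAM- library, the highest being Igkv17-127 with 4 reads in EpCAM- 1, and Igkv14-111, Igkv3-12 and Igkv4-61 led the other libraries with 1 or 2 reads. At this depth the kappa usage of EpCAM- cells cannot be described.

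The constant gene Ighm was read in both fractions, and the V reads beside it differed. Ighm had 306208, 22560, 37012 and 22392 reads in EpCAM+ 1 to 4 and 3900, 3190, 2497 and 1552 in EpCAM- 1 to 4. Per 100 Ighm reads there were 11.9, 12.9, 13.1 and 14.4 Ighv reads in the EpCAM+ libraries and 0.795, 1.35, 1.00 and 1.03 in the EpCAM- libraries (two-sided exact permutation, p = 0.0286, the lowest this design can give, adjusted p = 0.0357, n = 4 each). This ratio was chosen after the values were seen, and with the libraries paired by replicate number the smallest p that 4 pairs allow is 0.125, so that a paired exact permutation test cannot pass the threshold. The ratio did not overlap between the fractions, and in the EpCAM+ libraries it lay between 11.9 and 14.4 although the Ighm level of EpCAM+ 1 was 15.7 times that of EpCAM+ 2. In the EpCAM- libraries it rested on 16 to 43 Ighv reads. For the light chains the EpCAM+ libraries had 28.0, 26.4, 28.6 and 27.6 Igkv reads per 100 Igkc reads and 62.2, 76.9, 69.3 and 67.8 Iglv reads per 100 Iglc reads. Igkc had 17, 7, 34 and 31 reads in the EpCAM- libraries, too few for such a ratio.

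The table also holds V genes that make no antibody. V pseudogenes of the immunoglobulin loci, 155 in number, had 12, 42, 18 and 24 reads in EpCAM+ 1 to 4 and 1, 7, 5 and 6 in EpCAM- 1 to 4, so that their sums did not overlap either, but none of them passed the filter and their reads were few beside those of the V genes. T cell receptor V genes, 144 in number, summed to 4.77 to 7.65 CPM in the EpCAM+ libraries and 6.55 to 11.0 CPM in the EpCAM- libraries, a comparison added after the values were seen (two-sided exact permutation, p = 0.114, adjusted p = 0.114, n = 4 each).

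EpCAM+ 1 had the highest summed V levels of the EpCAM+ libraries and also the highest Ms4a1, Slamf7, Xcr1 and Epcam levels, by gaps of different size. From EpCAM+ 4 to EpCAM+ 1 the summed level in CPM was 11.4 times higher for Ighv, 12.8 times for Igkv and 5.34 times for Iglv. The same ratio was 13.8 for Ighm, 12.6 for Igkc, 17.7 for Jchain, which links IgM and IgA into polymers, and 7.76 for Mzb1, a chaperone of antibody secretion. It was 1.76 for Ms4a1, the B cell surface protein CD20, 1.35 for Slamf7 and 1.12 for Xcr1, a chemokine receptor of cross-presenting dendritic cells. From EpCAM+ 2 to EpCAM+ 1 these genes did not stand apart from the V sums: the ratio was 14.4 for Ighv, 13.2 for Igkv and 12.7 for Iglv, and 10.8 for Ms4a1, 13.7 for Slamf7 and 12.8 for Xcr1, while it was 1.46 for Epcam. Several other constant genes did not follow the V sums. From EpCAM+ 4 to EpCAM+ 1 the ratio was 39.2 for Ighg2b, 4.44 for Iglc2 and 2.25 for Iglc3, and Igha had 5 reads in EpCAM+ 3 against 1248 to 16424 in the other EpCAM+ libraries. These are ratios of single libraries, with no test.

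**Figure D5:**
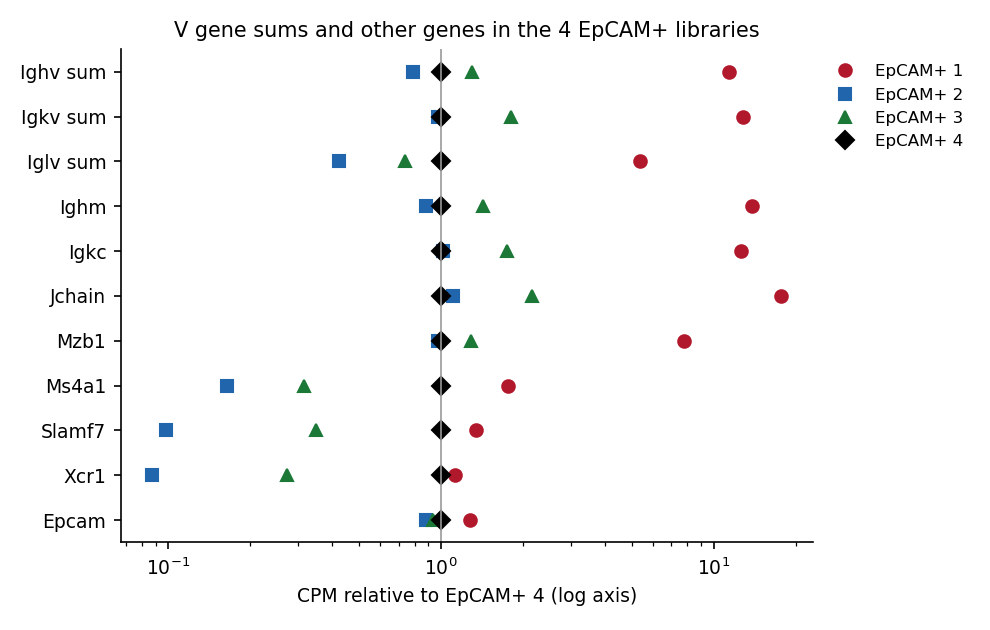
Level in CPM of the summed V genes and of 8 other genes in each EpCAM+ library, relative to EpCAM+ 4, on a log axis. EpCAM+ 1 lies 5.34 to 17.7 times above EpCAM+ 4 for the V sums, Ighm, Igkc, Jchain and Mzb1, and 1.12 to 1.76 times above it for Ms4a1, Slamf7, Xcr1 and Epcam.

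The genes that make, pair and read out V genes were followed as lists, against 42.6% of all tested genes called and a median log2 fold change of 0.02. Of the V(D)J recombination genes, 13 of 14 were tested, 1 rose and 1 fell (median -0.09). With the replicate number as a block 4 fell, in a fit that called 6818 of all 13560 genes tested, against 5779 without it. Xrcc4 of the end-joining ligase complex rose by 0.63 ± 0.14 (log2, SE, edgeR adjusted p = 0.00461) and Xrcc6, the Ku70 subunit, fell by 0.28 ± 0.07 (adjusted p = 0.00877). Rag1, the cutting subunit of the recombinase, had 0 to 4 reads in any library and was not tested, and its partner Rag2 stood at 1.24 to 3.37 CPM in EpCAM+ and 2.39 to 5.85 CPM in EpCAM- libraries (adjusted p = 0.0514). Of the surrogate light chain genes, which stand in for the light chain in precursor B cells, 3 were tested and none was called by edgeR, with 1 gene, Vpreb3, at an unadjusted p under 0.05 and none called by DESeq2. Vpreb1 differed by 0.09 ± 0.23 (adjusted p = 0.776).

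Of the B cell receptor genes, 12 were tested, 5 rose and 2 fell (median 0.26). Cd79a, which carries the receptor signal, rose by 3.26 ± 0.89 (log2, SE, edgeR adjusted p = 0.0144) with 36.3, 1.98, 4.92 and 4.93 CPM against 0.614 to 2.15 CPM, and the fractions overlapped through EpCAM+ 2. Of the B cell transcription factors, 9 were tested, 4 rose and 1 fell (median 0.14). Pou2af1, a coactivator of immunoglobulin genes, rose from 0, 2, 1 and 0 reads in the EpCAM- libraries to 178, 16, 38 and 26 in EpCAM+ 1 to 4 (adjusted p = 0.00259), while Pax5, the factor that fixes B cell identity, had no read in any library and Ebf1 had 0 to 3. Of the somatic hypermutation and switching genes 7 were tested and 2 fell (median -0.04), and none rose by edgeR, at an unadjusted p under 0.05 or by DESeq2.

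Of the antibody assembly and secretion genes, 14 were tested, 3 rose and 6 fell (median -0.32). Jchain rose, with 53916, 3902, 7671 and 3069 reads against 4, 0, 4 and 0 (edgeR adjusted p = 0.000307), as did Mzb1 by 6.03 ± 0.94 (log2, SE) and Derl3 by 1.66 ± 0.49. The 6 that fell are general chaperones and translocation genes of the endoplasmic reticulum such as Pdia6 (-0.48 ± 0.10) and Hspa5 (-0.48 ± 0.14). Of the plasma cell factors and surface genes, 8 were tested and 3 rose (median 0.59), among them Slamf7 by 5.91 ± 0.89 and Eaf2 by 3.60 ± 0.88. With the replicate number as a block 5 rose, where 6818 of all 13560 genes tested were called.

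Markers of other cells that the sort could hold also moved between the fractions, and their part in the V gene reads was not tested. Of the 9 plasma cell markers 6 were tested and 3 rose, and their summed level was 407 to 3994 CPM in EpCAM+ and 190 to 286 CPM in EpCAM- libraries. Jchain alone made up 3525, 221, 429 and 199 CPM of this sum in EpCAM+ 1 to 4. In the EpCAM- libraries Jchain reached at most 0.273 CPM. The gap between the fractions in the plasma cell sum thus came largely from 1 gene. Of the 8 B cell markers 3 were tested and 2 rose, with sums of 72.7 to 123 CPM against 46.3 to 79.1 CPM and with Pax5 at 0. Of the 7 conventional dendritic markers 6 were tested and 5 rose, with sums of 347 to 734 CPM against 181 to 296 CPM. Of the other markers, with no natural killer gene tested, 1 of 4 plasmacytoid dendritic, 1 of 5 erythroid and 1 of 4 megakaryocyte genes tested rose, and 1 plasmacytoid dendritic, 2 of 5 macrophage, 2 of 6 neutrophil, 4 erythroid and 3 of 5 mast and basophil genes fell. The neutrophil markers summed to 794 to 1350 CPM in EpCAM+ and 9982 to 15763 CPM in EpCAM- libraries. The erythroid sums were 33.3 to 74.5 CPM against 273 to 662 CPM. Mast and basophil sums were 258 to 292 CPM against 393 to 669 CPM. The macrophage, plasmacytoid dendritic and megakaryocyte sums overlapped between the fractions. Of the 8 T cell markers Lck and Cd4 were tested and rose, and Cd3e had 0 or 1 read. The stem and progenitor markers were present in both fractions, with 6 of 7 higher in EpCAM+ libraries (summed, 1935 to 2181 CPM against 1022 to 1543 CPM). Only Kit and Ly6a among them encode markers of the sort, c-Kit and Sca-1. Flt3 is on both this list and the conventional dendritic list and enters both sums.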

How the data were processed

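RNA-Seq was performed on 4 Zeb1-/- EpCAM+ and 4 Zeb1-/- EpCAM- LSK samples. The authors amplified the RNA, built libraries from 1 ng of cDNA, sequenced paired ends of 150 bp, aligned them to GRCm38.p6 and deposited whole-number read counts per gene without normalization. The submitters' processing notes name STAR 2.6.1d, featureCounts 1.5.0-p3 and DESeq2 1.20.0. The deposited table also holds FPKM values and the authors' log2 fold changes and p-values of the fractions, and none of these were used. The strand setting, the treatment of reads that fit several genes and the annotation release are not given in the sources used here. Reads of near-identical V genes may therefore have been dropped or split, and reads across a V-J junction or with somatic mutations may have been lost. Such losses could differ from gene to gene and so alter the usage shares as well as the counts, which was not tested.

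Counts were tested with edgeR 4.0.16 in R 4.3.3 (filterByExpr, TMM, quasi-likelihood test, two-sided, Benjamini-Hochberg adjustment over all tested genes, threshold 0.05). SEs were derived from the F statistic. V reads were summed per locus and library and compared on log2(CPM + 0.1) with exact two-sided permutation tests. Evenness, family shares and overlaps of usage were given only for libraries with at least 100 V reads of the locus. The EpCAM- libraries held fewer. For them, shares are given only for the leading heavy chain gene, with exact binomial intervals, and other genes were only ranked or counted. Sequences were read from GENCODE release M21 (GRCm38) and aligned with biopython 1.88, and figures were drawn with matplotlib 3.10.9. A floor of 3 reads, taken at its highest value in the EpCAM- libraries, 0.222 CPM, replaced counts of 0 in folds. Intervals and floors cover counting error only, since reads carry no molecular identifiers. On simulated counts for this comparison, with 13560 genes of which 200 were changed 2-fold, edgeR recovered 138 of them and 2 of its 140 calls were false. The simulation gave every gene the same fixed spread between libraries and held no pairing. V gene counts varied far more between the EpCAM+ libraries, so these rates do not carry over to the V gene calls.

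Same-numbered libraries deviated together from their fraction means (correlation across genes 0.205 to 0.356 in 4 pairs, against -0.216 to 0.0396 in 12 other pairs), so the numbers pair the samples. What the numbers share is not given in the sources used here. No 2 libraries of a fraction were duplicates (chi-square over its degrees of freedom between 9.80 and 91.7).

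The V genes and the gene lists were chosen with earlier results of these data known. For Ighv and Igkv, the genes named were the 5 with the highest mean share over the EpCAM+ libraries, the 3 with the highest over the EpCAM- libraries and the leading gene of each library, with every Iglv gene, the 3 smallest adjusted p, up to 3 genes of each list, Epcam, Zeb1 and Jchain. Other genes were named after their values were seen. The ratio of Ighv to Ighm reads and the T cell receptor sum were tests added after seeing the data. Alternatives were DESeq2 1.42.0, other scalings, filters and pseudocounts, the replicate number as a block and each library left out.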

Additional observations from a re-analysis of the deposited data

Results flagged for a closer look

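With 4 libraries per fraction, a library was marked where its gap to the nearest of the others over the range of its fraction exceeded Dixon's 95% critical value. Of the 35 groups examined 16 were marked. The chance rate of about 1 in 20 holds for normally distributed values, and the levels marked here were in CPM without a log scale. A group with reads in only 1 library is marked whatever its level. The 16 of 35 can therefore not be compared with that rate. Most of the marks share library EpCAM+ 1, so that they are not independent of each other.

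Library EpCAM+ 1 was the highest of its fraction for the summed Ighv level (2383 CPM, next 271), the summed Igkv level (6099 CPM, next 860) and the summed Iglv level (557 CPM, next 104). It was also the highest for Ighv11-2 (688 CPM), Ighv5-16 (230 CPM), Ighv1-26 (172 CPM) and Ighv6-3 (38.0 CPM). Of the light chain genes it was the highest for Igkv14-126 (1761 CPM), Igkv3-4 (1444 CPM), Igkv14-111 (178 CPM), Igkv3-12 (80.1 CPM), Igkv17-127 (0.850 CPM) and Iglv1 (425 CPM).

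Library EpCAM+ 4 was the highest for Igkv4-61 (29.9 CPM, 0 in the other EpCAM+ libraries) and had the lowest kappa share of the light chain V reads (82.0%, next 91.3%). Library EpCAM- 4 was the highest of its fraction for the summed Iglv level (0.0735 CPM), which is a single read.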

How the results depend on the processing

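The 3 summed levels kept their direction and side of the threshold under every other scaling, pseudocount, set of members and left-out library, and over the left-out libraries the difference lay between 6.73 and 8.02 for Ighv, 10.23 and 11.47 for Igkv and 9.27 and 10.49 for Iglv (log2, p = 0.0286 by exact permutation test). With the replicate block, the differences within numbered pairs were 7.61, 11.08 and 10.01 with p = 0.125 by exact sign-flip permutation, the smallest that 4 pairs allow. The block changed no V gene call (13 in both fits), while the calls over all genes went from 5779 to 6818.

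The number of V genes called depended on how many were tested. It was 13 of 14 with edgeR, where 5779 of all 13560 genes tested were called. DESeq2 called 40 of 56, against 6455 of 17800 over all genes. It gave no p-value for Ighv1-26, Ighv6-3, Ighv9-3, Jchain and Mzb1. A filter of 1 count in any library gave 104 of 149, against 5740 of 25237 over all genes. Over the left-out libraries the number of V genes called ranged from 15 to 25, where 4662 to 6039 of all genes were called. It was 24 or 25 when an EpCAM- library was left out and up to 27 V genes were tested. The calls were higher in EpCAM+ cells in each of these. Upper-quartile scaling and library totals moved the median of all genes by about 0.1 (to a log2 of 0.11, from 0.02) and the calls over all genes to 3642 higher and 2083 lower, and 3476 and 2066, against 2961 and 2818, with the same 13 V gene calls in number. A filter of 10 counts in every library left no V gene to test. With DESeq2, 5 of 7 B cell markers tested rose in place of 2 of 3. Of the antibody assembly genes 1 of 12 tested rose in place of 3 of 14, with Jchain and Mzb1 given no p-value. With library EpCAM+ 1 left out, 4 B cell receptor genes rose in place of 5. B cell transcription factors that rose were then 3 in place of 4, and stem and progenitor markers 5 in place of 6. Antibody assembly genes that fell were 8 in place of 6, and macrophage markers 1 in place of 2. Ighv1-23 was not called when any library was left out (adjusted p 0.216 to 0.895).

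The effective number of V genes was 12.8 for Ighv and 9.83 for Igkv by the exponential of the Shannon entropy, which weighs rare genes more, against 6.96 and 5.48. Over the left-out libraries it lay between 6.39 and 7.66 for Ighv and between 5.06 and 5.92 for Igkv, the kappa share between 88.3% and 91.6%, the leading share between 29.4% and 35.2% for Ighv and between 32.9% and 37.7% for Igkv, and the Ighv1 share between 20.0% and 30.2%. No result reversed its direction. The 16 to 43 Ighv reads per EpCAM- library, and the fewer light chain reads, limit any statement on usage in that fraction.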
